A study of Mus musculus with 6 samples.

Results

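Sox9, Sox5, Sox6, Acan, Comp, Matn2, Hapln1, Snorc, Chad and Cytl1, a set of 10 genes of chondrogenic factors and noncollagenous cartilage proteins, were followed across 6 RNA-seq libraries of C3H10T1/2 cells. The rule that chose them names the genes and uses no measured value, but the set was chosen with earlier results of these data known. Each mouse symbol was matched to 1 Ensembl gene of the 55401 in the count table. Of the 10 genes, 8 had a count in some library and 7 passed the filter on low counts. The filter kept 16742 of the 29043 genes with any count.

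C3H10T1/2 cells are mouse mesenchymal cells kept as a line, able in culture to become bone, fat, cartilage or muscle cells. The libraries came from 3 lines, each expressing a short hairpin RNA, so that no library came from cells without one: shControl carried a control hairpin, shNFIB a hairpin against Nfib (the transcription factor NFIB) and shMLL1 a hairpin against Kmt2a (the histone H3K4 methyltransferase MLL1). Cells of each line were taken at confluence, without any stimulus (day 0), or once they had spent 7 days in osteogenic medium (day 7), with dexamethasone at 0.1 µM, ascorbic acid 2-phosphate at 100 µg/ml and β-glycerophosphate at 20 mM. The 6 conditions had a single library each, and each hairpin a single line, so that a hairpin and its line cannot be told apart.

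SOX9 is the transcription factor that starts and maintains the chondrocyte programme. SOX5 and SOX6 are SoxD proteins that bind DNA beside it and strengthen the transcription of cartilage matrix genes. Aggrecan, encoded by Acan, is the large chondroitin sulfate proteoglycan that holds water in cartilage, and Hapln1 encodes the link protein that fastens aggrecan to hyaluronan. COMP and matrilin-2 are matrix adaptor proteins that bridge collagens and proteoglycans, CHAD (chondroadherin) is a leucine-rich repeat protein that binds cells and collagen, SNORC is a small chondrocyte membrane proteoglycan, and CYTL1 is a secreted cytokine-like protein of chondrocytes.

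Of these genes, the adaptor proteins Comp and Matn2 and the cofactor Sox5 rose by day 7 in all 3 lines, and Cytl1 fell in shControl and shMLL1. The factor Sox9 was abundant in every library and had no common direction with the day, whereas Acan and Snorc had 0 counts in every library. Comp had a lower level in shNFIB than in shControl on both days, by nearly the same factor, which did not pass the test, and Cytl1 was at 2 counts in both shNFIB libraries.

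The total count was between 21608680 in shMLL1 at day 7 and 34774066 in shNFIB at day 0. Levels are given in CPM, that is, counts scaled to a common library size with TMM factors (the trimmed mean of M-values), with 95% exact Poisson intervals behind every statement that neighbouring libraries differ. A count of 0 allows up to 3 counts, which is 0.0939 to 0.123 CPM in these libraries. Intervals and this floor include counting error alone, because reads are not independent molecules and no second culture was sequenced. In bulk RNA, fewer cells that transcribe a gene and less RNA per cell cannot be told apart. The targets of the hairpins were read first. In shNFIB, Nfib had 35.3 CPM at day 0 and 8.15 CPM at day 7, against 116.3 and 83.5 CPM in shControl. In shMLL1, Kmt2a had 30.9 and 34.8 CPM, against 74.7 and 66.3 CPM in shControl.

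To show what lies before the transcription start of the responding genes, promoters of RefSeq on GRCm38.p6 were read, from 250 bases before to 50 bases after the start. The table used here held 11 promoters for 6 of the 10 genes, and of the genes called by the test of the day described below it held Cytl1 and Sox5. The letters searched on both strands were the single NFI site TTGGC, the NFI palindrome (TTGGC, any 5 bases, GCCAA), which holds the single site, and the SOX motifs ACAAAG and ACAATG. Capitals mark the matches in the 2 promoters below, and GCCAA is the single site read on the other strand. The Cytl1 promoter is at chr5:37735269-37735568 on the plus strand and the Sox5 promoter at chr6:143947057-143947356 on the minus strand, inside the span of the gene. The 5' end of that span is at 144781977, far from this window, and Sox5 has 14 annotated transcripts. Which start was used in these cells was not tested.
Cytl1 promoter: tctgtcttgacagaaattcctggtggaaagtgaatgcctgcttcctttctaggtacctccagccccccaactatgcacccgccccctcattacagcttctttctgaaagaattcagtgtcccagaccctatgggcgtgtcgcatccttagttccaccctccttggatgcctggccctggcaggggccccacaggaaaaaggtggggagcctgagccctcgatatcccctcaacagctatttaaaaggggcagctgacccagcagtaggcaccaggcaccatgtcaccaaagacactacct
Sox5 promoter: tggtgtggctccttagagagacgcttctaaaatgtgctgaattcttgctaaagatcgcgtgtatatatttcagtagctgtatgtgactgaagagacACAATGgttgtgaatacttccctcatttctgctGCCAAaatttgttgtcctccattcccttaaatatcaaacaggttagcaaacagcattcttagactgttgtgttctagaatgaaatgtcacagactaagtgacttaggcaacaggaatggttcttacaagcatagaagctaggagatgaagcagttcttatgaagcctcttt
The Sox5 window held ACAATG at position -154 on its own strand and the single NFI site at position -121 on the other strand, counted from the transcription start to the left end of the match. The Cytl1 window held 0 matches to any of these letters. The single NFI site was in 46.7% of all 32841 promoters of the table, ACAATG in 12.6%, ACAAAG in 18.7% and the palindrome in 0.0365%. Such matches describe the letters alone and say nothing about binding.

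The genes differed widely in level. Per kb of exon, the mean over the 6 libraries was 37.6 CPM per kb for Matn2 and 26.1 CPM per kb for Sox9. Comp followed with 2.53 CPM per kb and Cytl1 with 0.947 CPM per kb. Sox5, Sox6 and Chad were between 0.164 and 0.228 CPM per kb, and Hapln1 was at 0.0080 CPM per kb. The matrix adaptor Matn2 and the factor Sox9 thus stood well above the other genes of the set. Of the 5 genes with over 3 counts in every library, Comp varied most in CPM, with a ratio of highest to lowest level of 132.4, and Sox9 least, with 2.71.

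**Figure D1:**
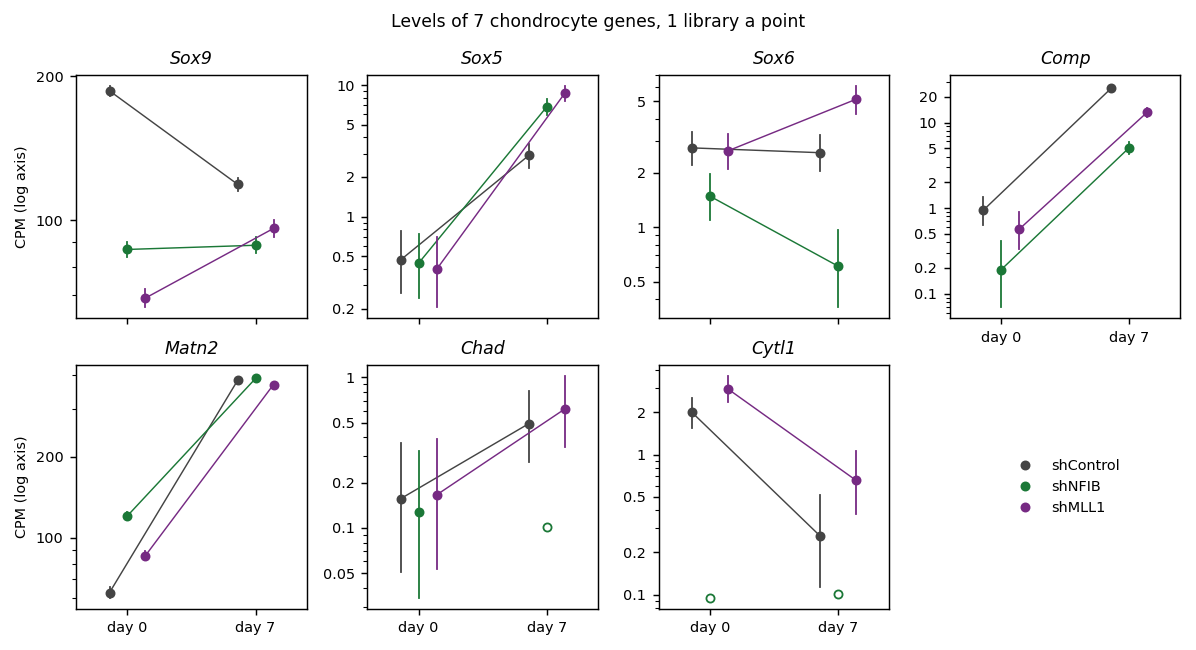
Levels in CPM (log axis) of the 7 genes that passed the filter, at day 0 and day 7, with 1 point per library and bars for the 95% exact Poisson interval. Open points mark 3 or fewer counts and are drawn at the level of 3 counts. Sox5, Comp and Matn2 were higher at day 7 than at day 0 in every line, and the Sox9 lines in shControl and shMLL1 cross the days in opposite directions.

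Sox9 (ENSMUSG00000000567, chromosome 11, 112782224 to 112787760, plus strand of GRCm38) is transcribed from a single annotated transcript. It was at 186.6 CPM in shControl at day 0 and 119.0 CPM at day 7. The shNFIB libraries had 87.0 and 88.8 CPM, and those of shMLL1 had 68.9 and 96.3 CPM. shControl at day 0 stood above all other libraries and shMLL1 at day 0 below them, and among neighbours in the order only the 2 shNFIB libraries had overlapping intervals.

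Sox5 (ENSMUSG00000041540, chromosome 6, 143828425 to 144781977, minus strand) was at 0.470, 0.443 and 0.398 CPM at day 0 in shControl, shNFIB and shMLL1. At day 7 it was at 2.92, 6.83 and 8.65 CPM in the same lines. The day 0 libraries, with 12 to 15 counts each, did not differ beyond their intervals, and every day 7 library stood above them. At day 7 shNFIB and shMLL1 overlapped, and both were higher than shControl. An antisense gene, Sox5os1, shares 1330 bases with Sox5 exons (9.25% of them). The strand setting of the counting is not given in the sources used here, so reads of the 2 genes may not be separable there.

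Sox6 (ENSMUSG00000051910, chromosome 7, 115470872 to 116038796, minus strand), the other SoxD cofactor of the set, did not follow Sox5. Its day 0 levels were 2.76, 1.49 and 2.65 CPM in shControl, shNFIB and shMLL1. At day 7 the same lines had 2.59, 0.609 and 5.12 CPM. The highest level was in shMLL1 at day 7 and the lowest in shNFIB at day 7. Both shNFIB libraries stood below the other 4, of which both shControl libraries and shMLL1 at day 0 overlapped.

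Comp (ENSMUSG00000031849, chromosome 8, 70373558 to 70382066, plus strand) had 30, 6 and 17 counts at day 0 in shControl, shNFIB and shMLL1, or 0.939, 0.190 and 0.563 CPM. At day 7 it had 767, 150 and 321 counts, or 25.2, 5.07 and 13.2 CPM. The order of the lines was the same on both days, with shControl highest and shNFIB lowest. At day 7 the 3 lines were apart, while at day 0 the neighbours in this order overlapped.

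Matn2 (ENSMUSG00000022324, chromosome 15, 34306677 to 34436273, plus strand) had 2001, 3808 and 2590 counts at day 0 in shControl, shNFIB and shMLL1, or 62.6, 120.6 and 85.8 CPM. At day 7 the levels were 383.3, 389.6 and 369.8 CPM, and neighbours among them overlapped. The lines were thus apart at day 0, with shControl lowest, and close to one another at day 7. A gene on the opposite strand, 9430069I07Rik, shares 70 bases of the Matn2 exons.

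Cytl1 (ENSMUSG00000062329, chromosome 5, 37735519 to 37739820, plus strand) had 64, 2 and 89 counts at day 0 in shControl, shNFIB and shMLL1. At day 7 it had 8, 2 and 16 counts. In CPM it was at 2.00 and 0.262 in shControl and at 2.95 and 0.656 in shMLL1. The day 0 libraries of shControl and shMLL1 overlapped and stood above all others. Both shNFIB libraries were below the floor of 3 counts.

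Chad (ENSMUSG00000039084, chromosome 11, 94565047 to 94569127, plus strand) had 5, 4 and 5 counts at day 0 in shControl, shNFIB and shMLL1, and 15, 3 and 15 counts at day 7. Hapln1 (ENSMUSG00000021613, chromosome 13, 89539796 to 89611652, plus strand) had 1, 2 and 0 counts at day 0 and 2, 0 and 3 counts at day 7. For both genes all neighbours in the order of libraries overlapped. Acan (ENSMUSG00000030607, chromosome 7, 79053483 to 79115099, plus strand) and Snorc (ENSMUSG00000026258, chromosome 1, 87470271 to 87475482, plus strand) were at 0 counts in all 6 libraries. The proteoglycan and the link protein of the aggrecan aggregate were thus not detectable above 3 counts at this depth in any line on either day.

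To ask what 7 days in osteogenic medium did to these genes across lines, day 7 was compared with day 0 by the quasi-likelihood test of edgeR, blocked by line, and p-values were adjusted by the Benjamini-Hochberg method over 16742 genes. Of the 7 genes tested, 4 were called at an adjusted p under 0.05. Comp rose by a log2 fold change of 4.66 ± 0.30 (SE, n = 3 lines, adjusted p = 0.000443), the largest rise among the 7. Sox5 rose by 3.67 ± 0.47 (SE, adjusted p = 0.00239 in edgeR). Matn2 rose by 2.14 ± 0.25 (SE, adjusted p = 0.00177 in edgeR). Cytl1 had a log2 fold change of -2.16 ± 0.61 (SE, adjusted p = 0.0347 in edgeR).

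The other 3 did not pass. Chad had a log2 fold change of 1.23 ± 0.72 (SE, adjusted p = 0.22), Sox6 of -0.08 ± 0.48 (SE, adjusted p = 0.908) and Sox9 of -0.05 ± 0.25 (SE, adjusted p = 0.901), all from edgeR's test. For Sox9 and Sox6 the sign of this average depends on the setting: both were above 0 with libraries scaled by size alone, at 0.09 and 0.05. The background was high, with 16.8% of all genes tested higher and 16.5% lower at day 7, against 3 higher and 1 lower of the 7. That is 2816 genes higher and 2758 lower, which became 3287 and 2116 with libraries scaled by size alone. Because the set was chosen with earlier results of these data known, its shares beside this background are a description only. The median log2 fold change of the 7 genes was 1.23, and that of all genes 0.01. Since the labels name no separate cultures, these p-values measure only the spread between 3 lines that also differ in their hairpins. The call of Cytl1 was lost without shControl (-1.70, adjusted p = 0.205 in edgeR), and without shMLL1 it was not among the genes tested.

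Each line was then taken on its own, without a test, since a line has 1 library per day. Intervals here are exact Clopper-Pearson 95% intervals for counting error. In shControl 5 of 7 genes with at least 10 counts in a library were past 2-fold, against 37.9% of all genes. In shNFIB 4 of 5 were past 2-fold, against 30.5%, and in shMLL1 5 of 7, against 45.6%. The median log2 fold changes of the genes were 1.63, 1.69 and 1.86, beside -0.00, -0.03 and 0.04 for all genes.

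Comp was the gene whose response was most alike between lines. Its level at day 7 was 26.7-fold that of day 0 in shControl, 26.2-fold in shNFIB and 23.2-fold in shMLL1. The log2 interval was 4.22 to 5.32 in shControl, and it was wider in shNFIB, 3.58 to 6.21, where day 0 rested on 6 counts. In shMLL1 the response minus that of shControl was -0.20 with a 95% interval from -1.08 to 0.68.

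The response of Sox5 was larger in both knockdown lines than in shControl. Its log2 fold change was 2.63 (1.84 to 3.53) in shControl, 3.93 (3.17 to 4.84) in shNFIB and 4.43 (3.61 to 5.42) in shMLL1. The response exceeded that of shControl by 1.31 (0.20 to 2.42) in shNFIB and by 1.81 (0.65 to 2.96) in shMLL1. Matn2 showed the reverse order, with 2.61 in shControl, 1.69 in shNFIB and 2.11 in shMLL1. Its response was smaller than that of shControl by a log2 difference of -0.92 (-1.01 to -0.83) for shNFIB and of -0.51 (-0.60 to -0.41) for shMLL1. For Matn2 the lines differed at the start and met at day 7, whereas for Sox5 they were alike at the start and differed at day 7.

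Sox9 and Sox6 went in different directions in different lines. The log2 fold change of Sox9 was -0.65 (-0.71 to -0.59) in shControl, 0.03 (-0.05 to 0.11) in shNFIB and 0.48 (0.40 to 0.57) in shMLL1. Sox6 had values of -0.09 (-0.55 to 0.37), -1.28 (-2.16 to -0.48) and 0.95 (0.53 to 1.37) in the same order. The knockdown lines thus lay on the same side of shControl for Sox9, with response differences of 0.68 (0.58 to 0.78) for shNFIB and of 1.13 (1.03 to 1.24) for shMLL1. They lay on opposite sides for Sox6, with -1.20 (-2.10 to -0.30) in shNFIB and 1.04 (0.44 to 1.64) in shMLL1. The factor and this cofactor did not pass 2-fold in shControl. These differences of responses share the shControl libraries and cover counting error only.

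The secreted protein genes had fewer counts. The log2 fold change of Cytl1 was -2.91 (-4.20 to -1.87) in shControl and -2.16 (-3.04 to -1.39) in shMLL1. That of Chad was 1.63 (0.12 to 3.47) in shControl and 1.86 (0.36 to 3.71) in shMLL1. In shNFIB both genes had under 10 counts on either day.

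**Figure D2:**
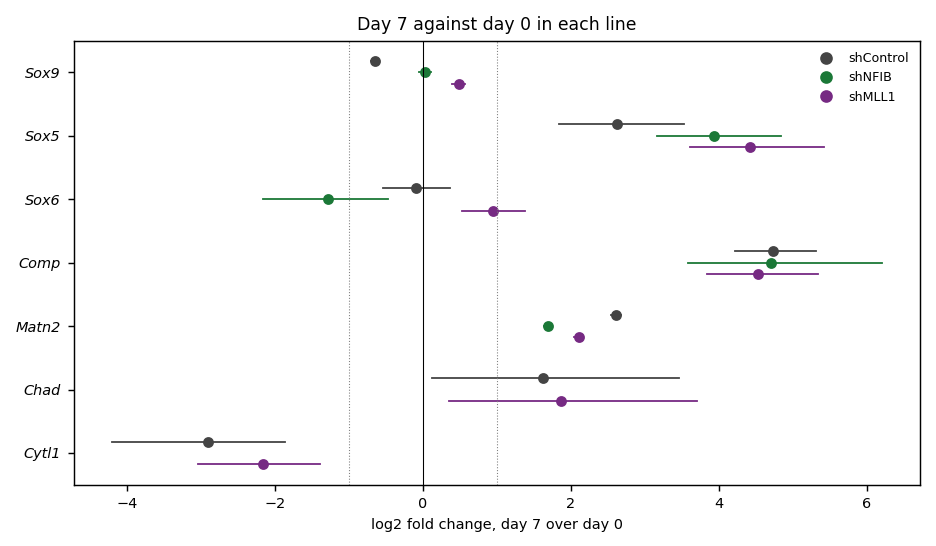
Log2 fold change of day 7 over day 0 in each line (horizontal axis), for genes with at least 10 counts in 1 of the 2 libraries, with bars for the exact 95% counting interval and dotted lines at 2-fold. The 3 lines lie together for Comp, between 4.53 and 4.74, and on both sides of 0 for Sox9 and Sox6.

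To ask how the hairpins bore on these genes, each knockdown line was set against shControl. Both comparisons use the same 2 shControl libraries. The 2 libraries of a line are its day 0 and day 7, not separate cultures. The p-values of shNFIB and shMLL1, here and for the lists below, therefore measure only how the line differences varied with the day. They do not measure the spread between independent lines or cultures. With both days fitted together and the day as a term, the quasi-likelihood test of edgeR called 0 of the 7 genes for shNFIB and 0 of 7 for shMLL1. It called few genes at all, 0.376% of those tested for shNFIB and 0.0299% for shMLL1. At an unadjusted p under 0.05 edgeR had 3 of the 7 genes for shNFIB, Comp, Cytl1 and Sox9, and 2 for shMLL1, Sox9 and Comp. At that threshold it had 12.5% of all genes tested for shNFIB and 9.28% for shMLL1. DESeq2's test called 2 of the 7 for shNFIB, Comp and Cytl1, against 3.48% of all genes, and 0 for shMLL1, against 2.33%.

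Comp came nearest in shNFIB, with a log2 fold change of -2.29 ± 0.35 (SE, n = 2 libraries a line, adjusted p = 0.0618 in edgeR). Its difference was -2.28 (-3.86 to -1.02) at day 0 and -2.31 (-2.57 to -2.06) at day 7, a ratio of 4.86 and 4.96. It was called with libraries scaled by size alone (-2.40), with all genes that had a count (-2.29), in DESeq2 (-2.33) and with the 4 libraries of both lines fitted alone (-2.32). Outside DESeq2 these settings called 0.442%, 2.37% and 3.31% of all genes. The adjusted p ranged from 2.54e-05 to 1 over all settings tried. In shMLL1 Comp had a log2 fold change of -0.85 ± 0.33 (SE, adjusted p = 0.486 in edgeR), with -0.73 (-1.69 to 0.17) at day 0 and -0.94 (-1.13 to -0.75) at day 7.

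Cytl1 had a log2 fold change of -3.72 ± 0.87 (SE, adjusted p = 0.161 in edgeR) in shNFIB. At day 0 it had 2 counts against 64, a log2 difference of -4.90 (-8.06 to -3.07). At day 7 it had 2 against 8 counts, and the interval of that difference, -5.23 to 0.37, includes 0. In shMLL1 it lay on the other side of shControl, with 0.56 (0.08 to 1.04) at day 0 and 1.31 (0.01 to 2.75) at day 7, and was not called (0.83 ± 0.63 SE, adjusted p = 0.746 in edgeR).

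For Sox9 both knockdown lines lay below shControl on both days. The log2 difference was -1.10 (-1.17 to -1.04) at day 0 and -0.42 (-0.50 to -0.35) at day 7 for shNFIB. For shMLL1 it was -1.44 (-1.51 to -1.37) at day 0 and -0.31 (-0.38 to -0.23) at day 7. Over both days it was -0.79 ± 0.31 (SE, adjusted p = 0.359) in shNFIB and -0.88 ± 0.31 (SE, adjusted p = 0.436) in shMLL1 in edgeR's test, which did not call it. The gap was past 2-fold at day 0 and under it at day 7 in both lines.

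The SoxD cofactors differed from each other. Sox5 was within its interval of shControl at day 0, at -0.08 (-1.24 to 1.07) for shNFIB and at -0.24 (-1.47 to 0.95) for shMLL1. At day 7 it was higher by 1.23 (0.86 to 1.60) in shNFIB and by 1.57 (1.20 to 1.94) in shMLL1. Sox6 was lower in shNFIB, by -0.89 (-1.43 to -0.36) at day 0 and -2.08 (-2.92 to -1.34) at day 7, with an adjusted p of 0.411 in edgeR over both days. In shMLL1 it was at -0.06 (-0.51 to 0.40) at day 0 and 0.98 (0.57 to 1.41) at day 7. The 2 cofactors thus lay on opposite sides of shControl in shNFIB at day 7 and on the same side in shMLL1.

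Matn2 was higher than in shControl at day 0, by 0.94 (0.87 to 1.02) for shNFIB and by 0.45 (0.37 to 0.54) for shMLL1. At day 7 it differed by 0.02 (-0.01 to 0.06) and -0.05 (-0.09 to -0.01). Chad had 3 counts against 15 at day 7 in shNFIB, a difference of -2.23 (-4.71 to -0.46), and 15 against 15 in shMLL1.

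Counted over pairs of libraries, 3 of 6 genes with at least 10 counts were past 2-fold in shNFIB at day 0, all lower (Sox9, Comp and Cytl1), against 13.6% of all genes. At day 7 in shNFIB 4 of 6 were, with Comp, Sox6 and Chad lower and Sox5 higher, against 21.3%. In shMLL1 1 of 6 was at day 0, Sox9, lower, against 20.4%. At day 7 in shMLL1 2 of 7 were, Sox5 and Cytl1, both higher, against 15.5%. The median difference of the genes was -0.99 and -1.25 in shNFIB at day 0 and day 7, and -0.15 and 0.32 in shMLL1, while the median of all genes was between -0.04 and 0.09.

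**Figure D3:**
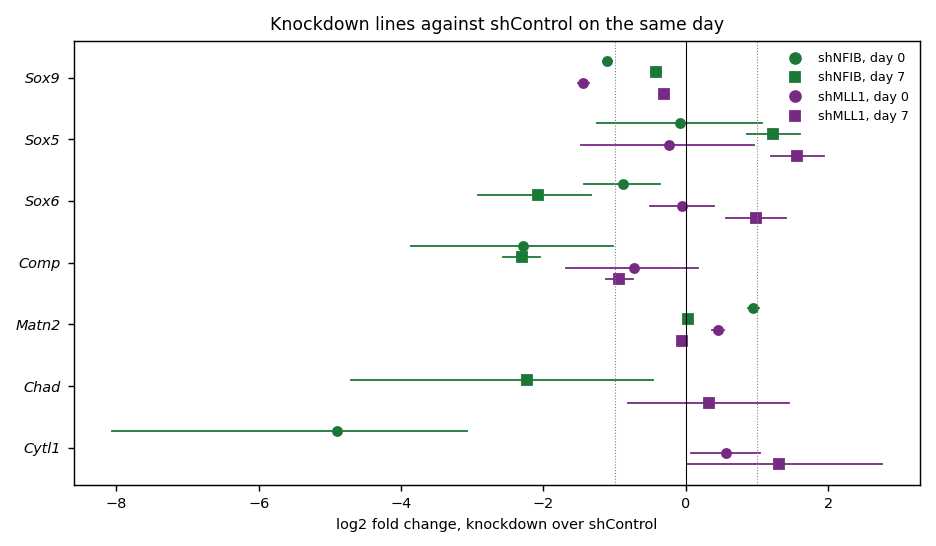
Log2 fold change of shNFIB and shMLL1 over shControl on the same day (horizontal axis), for genes with at least 10 counts in 1 of the 2 libraries, with bars for the exact 95% counting interval and dotted lines at 2-fold. Circles are day 0 and squares day 7. Comp in shNFIB has the same position on both days, -2.28 and -2.31, whereas Sox5 lies at 0 or just below on day 0 and above 1 on day 7.

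The genes whose level over the 6 libraries was most like that of each gene were sought among the 11437 protein-coding genes that reached 10 counts in each library, by the root mean square difference of log2 CPM after centring each profile on its mean. Comp, Cytl1 and Chad had too few counts for this. For Sox9 the nearest were Gatad1 (0.0865), Cryab (0.116) and Pdgfrl (0.146). For Sox5 they were Errfi1 (0.286), Stim1 (0.314) and Fkbp5 (0.337). Fkbp5, a gene known to be induced by glucocorticoids such as the dexamethasone of this medium, was at 25.4 and 273.0 CPM in shControl at day 0 and day 7. In the same libraries Errfi1 was at 21.0 and 175.2 CPM and Stim1 at 47.5 and 243.8 CPM. A part of dexamethasone in the rise of Sox5 was not tested. The parts of the medium and the time in culture cannot be told apart here. For Sox6 they were Kank3 (0.310), Pag1 (0.343) and Fndc4 (0.394), and for Matn2 they were Slc45a3 (0.161), Srrm4 (0.165) and Gm35339 (0.220). Among the set itself, the profiles of Sox5 and Matn2 (0.958) and of Sox9 and Sox6 (0.959) were the nearest pairs, and Sox5 and Sox6 the farthest (2.19).

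Other genes of the same families and pathways were read from lists. Counts of day calls in these lists stand against the 16.8% higher and 16.5% lower among all genes tested. Of the remaining SoxD and SoxE genes, Sox10 was at 0 in every library and Sox8 had 5 or fewer counts. Sox13, the third SoxD gene, had 215, 7 and 64 counts at day 0 in shControl, shNFIB and shMLL1, and 145, 5 and 49 counts at day 7. It fell in shNFIB over both days (log2 fold change -4.84 ± 0.50 SE, adjusted p = 0.0299 in edgeR) and was not called in shMLL1 (-1.45 ± 0.41 SE, adjusted p = 0.294 in edgeR). Without the block the shNFIB call was lost. The 3 SoxD genes therefore had different patterns in shNFIB, with Sox13 and Sox6 below shControl on both days and Sox5 above it at day 7.

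Of 20 chondrogenic regulators, 12 were tested, and by day 7 1 rose and 3 fell, beside 16.8% higher and 16.5% lower of all genes. Zfp219, whose protein is a partner of SOX9, rose by 0.83 ± 0.25 (SE, adjusted p = 0.0404 in edgeR). Erg, Foxc2 and Wwp2, the last a ubiquitin ligase that works with SOX9, fell, with log2 fold changes of -2.78, -1.24 and -0.88. Erg had 193, 0 and 23 counts at day 0 in shControl, shNFIB and shMLL1 and 35, 0 and 1 counts at day 7, and was called lower in shNFIB over both days (adjusted p = 0.047 in edgeR), a call lost with protein-coding genes alone and without the replicate block. Arid5b and Foxc1, which with Wwp2 had the most counts of the list, were not called. None of the 4 calls of the day held without shControl, or without the block.

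The collagens that these noncollagenous proteins bind moved apart from one another. Of 8 cartilage collagen genes 7 were tested, and by day 7 3 rose and 2 fell, with a median of 0.19. Col2a1, the main collagen of cartilage and a classical SOX9 target, had 7124, 5762 and 363 counts at day 0 in the same order of lines, and 334, 52 and 54 counts at day 7. It fell (log2 fold change -4.49 ± 0.77 SE, adjusted p = 0.00678 in edgeR), in the opposite direction to Comp and Matn2. Col11a1, a chain of the same fibrils, fell too (-0.99 ± 0.30 SE, adjusted p = 0.0406 in edgeR). Col9a2 (4.87), Col27a1 (2.83) and Col11a2 (2.31) rose, with adjusted p from 0.0039 to 0.0125 in edgeR. Col9a1 had 142 and 58 counts in shControl against 0 and 0 in shNFIB, and was called lower in shNFIB over both days (adjusted p = 0.048 in edgeR), a call lost with protein-coding genes alone and without the block. The day calls of Col9a2 and Col11a1 were lost without shControl, that of Col11a1 also with library size alone and with protein-coding genes alone, and those of Col11a1 and Col27a1 without the block.

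**Figure D4:**
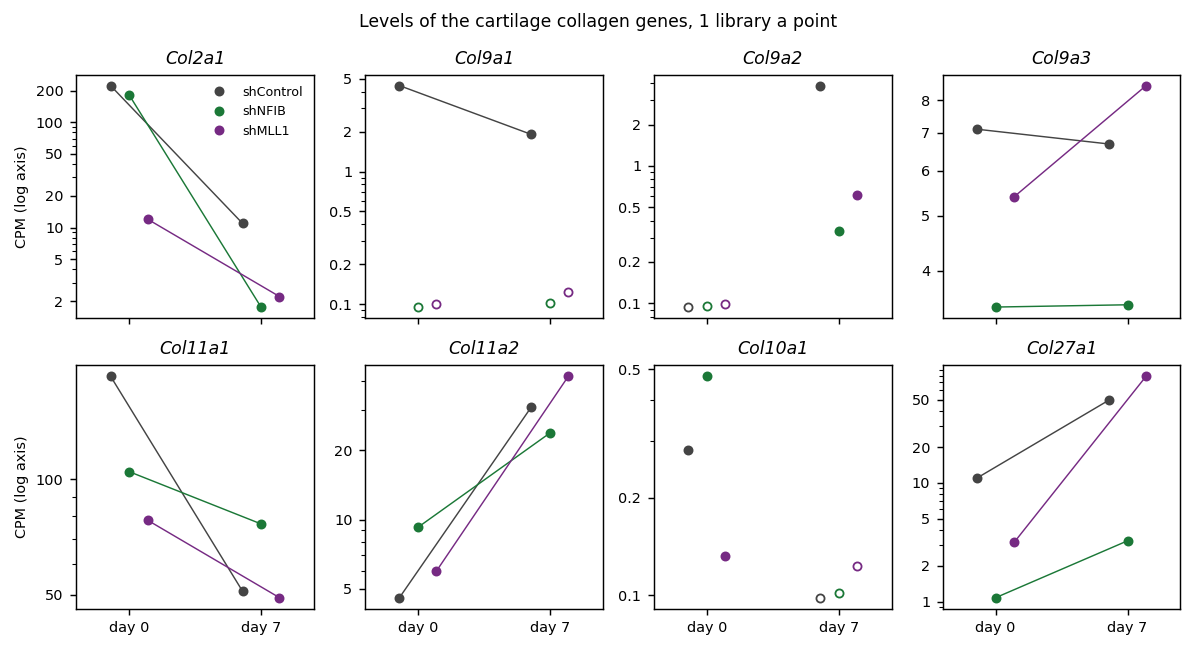
Levels in CPM (log axis) of the 8 cartilage collagen genes at day 0 and day 7, with 1 point per library. Open points mark 3 or fewer counts and are drawn at the level of 3 counts. Col2a1 is lower and Col11a2 and Col27a1 are higher at day 7 in each line, so that the collagen genes do not move as 1 group.

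Of 22 other cartilage matrix genes 15 were tested, and 4 rose and 0 fell by day 7, with a median of 0.55 (edgeR). They were Cilp2 (3.66), Cilp (2.88), the lubricin gene Prg4 (2.37) and Thbs2 (0.79), a thrombospondin of the family to which COMP belongs. Cilp2 and Cilp had 20 or fewer counts in every library. Prg4 went from 0.908 to 11.0 CPM in shControl, from 54.7 to 85.25 in shNFIB and from 1.99 to 16.9 in shMLL1. For shNFIB over both days it was not called (4.48 ± 0.73 SE, adjusted p = 0.0745 in edgeR). Prelp and Vcan, the large proteoglycan that resembles aggrecan, had the most counts of the list with Thbs2 and were not called. Vcan was between 126.1 and 492.4 CPM, while Acan was at 0. The calls of Cilp, Prg4 and Thbs2 were lost without shControl or without the block, and those of Cilp and Thbs2 also without either other line.

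Aggrecan and the other proteoglycans carry chondroitin sulfate chains. Of 20 genes that make these chains 18 were tested, and 3 rose and 8 fell by day 7, with a median of -0.45. The sulfotransferases Chst15 (2.65) and Chst11 (1.83) rose, as did Chpf2 (0.96). Papss2 and Papss1, which make the sulfate donor, fell, with log2 fold changes of -2.89 and -1.28. Ugdh, the sulfate transporter Slc26a2, Impad1 (also Bpnt2), Chsy1, Csgalnact1 and Csgalnact2 also fell, from -0.62 for Csgalnact2 to -1.45 for Csgalnact1. Ugdh, Impad1 and Chpf had the most counts, and Chpf was not called. Without shControl 5 of these 11 calls remained, and without the block also 5. With library size alone 7 remained, and the falls of Chsy1, Csgalnact2, Slc26a2 and Impad1 were lost.

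Of 14 genes that build or break down the aggrecan and hyaluronan aggregate 13 were tested, and 6 rose and 3 fell by day 7, with a median of 1.35. The aggrecanase gene Adamts4 rose by 2.12 ± 0.22 (SE, adjusted p = 0.00125 in edgeR). Adamts15 (6.27), the protease gene Mmp3 (4.21), Adamts9 (2.22), the hyaluronan synthase Has3 (2.07) and Hyal1 (1.35) rose too. Has1, the hyaluronan receptor Cd44 and the inhibitor Timp3 fell, with log2 fold changes of -2.26, -2.12 and -1.45. Adamts1 and Adamts5, which with Timp3 had the most counts, were not called. Without shControl 5 of these 9 calls remained, and those of Adamts15, Has3, Hyal1 and Timp3 were lost, that of Timp3 also without the block. In all these lists together, the shMLL1 test called 0 genes, and the shNFIB test called Sox13, Erg and Col9a1 (edgeR).

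The label of the set was checked against cell type markers. Of 10 chondrocyte markers all had a count, 8 were tested, and by day 7 2 rose (Col9a2, Col11a2) and 1 fell (Col2a1). Their summed level went from 248.9 CPM at day 0 to 57.9 CPM at day 7 in shControl and from 196.1 to 31.1 CPM in shNFIB, but from 24.4 to 62.7 CPM in shMLL1. Col2a1 made up 223.0 CPM of the day 0 sum in shControl, 182.5 CPM in shNFIB and 12.0 CPM in shMLL1. In shMLL1 Col2a1 fell too, to 2.21 CPM at day 7, while Col11a2 rose from 5.96 to 42.0 CPM. Col11a2 also rose in shControl (4.57 to 30.9 CPM) and in shNFIB (9.25 to 23.8 CPM). With Hapln1 at 3 or fewer counts, these libraries held cartilage genes while Acan and Snorc were at 0. The 10 genes are named here by the rule that chose them, not as a mark of chondrocytes in the culture.

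Several of the set are also transcribed in tendon, bone or fat, and some markers of these cells moved with the day, not alike in every line. Of 6 tenocyte markers 5 were tested, Kera rose and Scx, Tnmd and Mkx fell, Thbs4 was at 0, and the summed level was 42.3 to 57.9 CPM at day 0 and 20.6 to 38.8 CPM at day 7. Kera had the largest change of these (7.67 ± 1.22 SE, adjusted p = 0.00533 in edgeR). It had 1, 1 and 0 counts at day 0 and 18, 17 and 585 counts at day 7 in shControl, shNFIB and shMLL1. Scx, Tnmd and Mkx had log2 fold changes of -2.69, -1.98 and -1.025. Of 9 osteoblast markers 6 were tested, Alpl and Ifitm5 rose, and Ibsp was at 0. From day 0 to day 7 the sum went from 48.0 to 177.5 CPM in shControl, from 39.2 to 50.7 CPM in shNFIB and from 43.8 to 60.5 CPM in shMLL1. Runx2 and Dlx5 were not called. Runx2 went from 32.8 to 116.8 CPM in shControl, from 31.45 to 30.4 CPM in shNFIB and from 32.2 to 35.3 CPM in shMLL1. Dlx5 went from 12.8 to 52.5, from 4.43 to 3.69 and from 4.04 to 15.9 CPM in the same lines. Alpl had 0 and 2 counts in shMLL1. Of 8 adipocyte markers 6 were tested, and Cidec, Plin1, Lpl and Pparg rose. Cebpa (-0.63) and Fabp4 (0.16) were not called, and Adipoq had 1 or 0 counts in every library. The sum went from 51.0 to 134.1 CPM in shControl, from 63.5 to 93.4 in shNFIB and from 18.2 to 30.2 in shMLL1. At day 7 Plin1, Cidec and Lpl had 472, 681 and 1084 counts in shControl. They had 9, 5 and 22 counts in shNFIB and 28, 17 and 4 in shMLL1. Retn had 117 counts in shControl at day 7 and 0 in every other library. The calls of Mkx, both osteoblast and all 4 adipocyte markers were lost without shControl, and those of Alpl, Tnmd and the 4 adipocyte markers without the block. Without shNFIB those of Alpl, Pparg and Lpl were lost, and without shMLL1 those of Ifitm5, Plin1, Cidec and Pparg. DESeq2's test did not call Cidec. Of 5 markers of hypertrophic chondrocytes 3 were tested and 0 were called (edgeR). The sum, mostly Spp1, went from 225.2 CPM at day 0 to 1394 CPM at day 7 in shControl. It went from 221.2 to 244.6 CPM in shNFIB and from 229.9 to 305.2 CPM in shMLL1. Col10a1 had 15 or fewer and Ihh 11 or fewer counts in every library. The part of such cells in the results of Comp, Sox5, Matn2 and Cytl1 was not tested.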

How the data were processed

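RNA-seq of 6 C3H10T1/2 libraries was analysed, 1 for each line and day. The authors trimmed reads with Trimmomatic 0.39, aligned them to GRCm38 with HISAT2 2.2.1, filtered them with SAMtools 1.12, removed PCR duplicates and counted them per Ensembl gene with htseq-count 0.11.1. The deposited values are raw counts without normalization. The annotation release and strand setting of the counting are not given in the sources used here.

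Gene positions and exon lengths came from GENCODE M21 (GRCm38), which had an entry for 55141 of 55401 genes. TMM factors were taken over all genes with a count, filterByExpr was used on the unscaled library sizes, and the quasi-likelihood test of edgeR 4.0.16 (R 4.3.3) was fitted with line and day as terms to 16742 genes, with an estimated biological coefficient of variation of 0.281 and 2 residual degrees of freedom. A call needed an adjusted p (Benjamini-Hochberg) under 0.05. Fold changes of pairs of libraries used a prior count of 0.125, with no test. Alternatives were DESeq2 1.42.0 (test and size factors), scaling by library size alone, all genes with a count, protein-coding genes alone, no block, each line left out, each day alone, and for pairs a minimum of 1 count or of 10 in both libraries. Intervals and figures used Python 3.11.15, scipy 1.17.1, pandas 2.3.3 and matplotlib 3.10.9. The quasi-likelihood fits were tested on simulated counts, drawn independently for each library and without any deviation shared by the libraries of a line. Such a run cannot show how often the knockdown tests err on these data.

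Both libraries of a knockdown or control line were treated as a pair because they share that line. Over genes, the deviations of a pair from the mean of each day correlated at 0.424 (shControl), 0.427 (shNFIB) and 0.273 (shMLL1).

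The genes named are the 10 genes of the set, the called genes, the 3 genes with the most counts in each list of related genes and the defining markers, the 3 nearest profiles, and the hairpin targets. The 10 genes and the lists were chosen with earlier results of these data known. No fold-change column of the authors was used.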

Additional observations from a re-analysis of the deposited data

Results flagged for a closer look

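Sox9 moved in opposite directions between days in 2 lines. Its log2 fold change of day 7 over day 0 was 0.48 in shMLL1 (68.9 to 96.3 CPM) and -0.65 in shControl (186.6 to 119.0 CPM), with counting intervals that do not include 0. With 1 library per condition the difference between the lines was not tested against replicate error. The cause was not tested.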

How the results depend on the processing

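The day test of the 10 genes called 4 of the 7 tested, and Comp, Sox5 and Matn2 were called in every alternative run. It called 3 with protein-coding genes alone (Cytl1 at -2.09, adjusted p = 0.0538 in edgeR) and without the replicate block (Cytl1 at -2.36, adjusted p = 0.163 in edgeR), and 3 to 4 with 1 line left out. The block changed no other call of the 10 genes, and without it 0 were called for shNFIB and 0 for shMLL1. Sox9 had a day value of 0.0891 with library size alone and 0.0081 with protein-coding genes alone, and between -0.3485 (without shMLL1) and 0.2103 (without shControl) with 1 line left out. Sox6 had a day value of 0.053 with library size alone and 0.27 without the block, and between -0.6677 (without shMLL1) and 0.4341 (without shNFIB) with 1 line left out. Both were just below 0 in the report. None of these was called. For shNFIB, 1 gene was called with library size alone, 2 with all genes that had a count, 2 in DESeq2 and 1 with 4 libraries alone, against 0. Between day 0 alone and day 7 alone, Sox5 went from -0.0822 to 1.2258 in shNFIB and from -0.2378 to 1.565 in shMLL1, Sox6 from -0.0555 to 0.9818 in shMLL1 and Matn2 from 0.4542 to -0.0516 in shMLL1, so that the sign over both days rests on 1 day. With 10 counts required in both libraries, 3 of the set were past 2-fold between days in shControl (5 in the report), 1 in shNFIB at day 0 (3) and 1 in shMLL1 at day 7 (2), since fewer genes could be counted. With 1 count in 1 library sufficient, 2 were past it in shMLL1 at day 0 (1).

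Counts over all genes moved more. Against 2816 higher and 2758 lower with the day, 1808 were lower without the block, and 1004 higher and 1098 lower without shControl. For shNFIB (63 calls), edgeR without the filter called 341 higher and 347 lower, DESeq2 292 and 308, the 4 libraries alone 240 and 284, protein-coding genes alone 8 and 18, and no block 0 and 0. For shMLL1 (5 calls) the first 3 gave 236 and 290, 169 and 232, and 84 and 110, and no block 0 and 0. The genes past 2-fold between days numbered 6366 in shControl, 4950 in shNFIB and 7773 in shMLL1. They were 4241 and 3275 in the first 2 lines with 10 counts in both libraries, and 12666, 11066 and 14789 with 1 count sufficient. Against shControl, 2135 (shNFIB) and 3275 (shMLL1) at day 0 and 3561 and 2626 at day 7 became 1176, 1897, 2115 and 1377 under the first of these settings and 7831, 9651, 9364 and 9062 under the other. Scaling by library size alone moved log2 fold changes of pairs by up to 0.21 (shMLL1, day 7 over day 0), and DESeq2's size factors by up to 0.07. The main limits are 1 library per condition, counts of 16 or fewer for Chad in every library and for Cytl1 outside 2, and lines that differ in more than the day.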
